A study of Mus musculus with 18 samples.

Results

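A set of 10 protein-coding genes, Esrp1, Tlx2, Mcoln3, Scfd2, Ins2, Emx1, Rd3l, Sowahb, Arhgap20 and Hlf, were followed in RNA from the choroid plexus of lupus-prone and control mice. They were proposed as genes with less RNA in the lupus-prone strain that do not follow the amount of immune infiltrate. They are 10 of 50584 genes in the count table and 10 of the 16598 genes that passed a filter on low counts. All 10 passed it. Their values were already known to be low in the lupus-prone strain when they were picked, so the difference between the strains is described here without a test. The proposal was checked gene by gene against the libraries. The part on the strains, a lower level in every lupus-prone library at both ages, held for 5 of the 10. Of all genes tested, 0.837% met it. It held for 4 of the 10 with DESeq2 size factors and for 2 with scaling to the epithelium, where the share of all genes was not computed. The part on infiltrate was shown for none of the 10. In the main fit it went against 2, which fell with the leukocyte gene Ptprc, where 7.56% of all genes did. It went against 1 without the filter on low counts, where 741 of all genes fell, against 1160 in the main fit. With scaling to the epithelium it went against 0, but there only 11 of all genes fell. A list of leukocyte genes in place of Ptprc also gave 0, with 289 of all genes falling. There Rd3l kept the slope of the main fit, -0.44, with an edgeR adjusted p of 0.0518.

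The mutated strain, MRL/lpr, has the lpr allele in the death receptor gene Fas and falls ill with an autoimmune disease like lupus. MRL/+ mice share the MRL background without that allele and served as controls. Choroid plexus was frozen after dissection, and 4 groups were sequenced, with 6 libraries of MRL/lpr at 12 weeks, 6 of MRL/lpr at 16 weeks, 3 of MRL/+ at 12 weeks and 3 of MRL/+ at 16 weeks. Whether libraries of a group are separate animals is not stated, so each p-value reflects only how these samples spread, which may be technical. Total counts per library ran from 11164284 to 14602253.

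The choroid plexus is a fold of secretory epithelium over a vascular stroma that makes cerebrospinal fluid. Its epithelial cells are joined to each other by tight junctions. In MRL/lpr mice leukocytes gather in its stroma. Of the genes followed here, Esrp1 is an RNA-binding protein that sets epithelial splicing patterns, Tlx2 and Emx1 are homeobox transcription factors, and Hlf is a PAR bZIP transcription factor whose relatives cycle with the circadian clock. Mcoln3 is a cation channel of endosomes and lysosomes, Scfd2 belongs to the Sec1 family of vesicle-trafficking proteins, and Ins2 is a mouse insulin gene.

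Markers of the tissue were present throughout. The summed level of 18 choroid plexus epithelium genes was 206700 to 317700 CPM (reads of a gene scaled to library size by the TMM method) in MRL/lpr at 12 weeks, 162200 to 292400 in MRL/lpr at 16 weeks, 194700 to 278800 in MRL/+ at 12 weeks and 277900 to 323800 in MRL/+ at 16 weeks, and none of the 18 was at 0 in any library. The summed level of 16 leukocyte genes was 1340 to 6370 CPM in MRL/lpr at 12 weeks and 620 to 6883 at 16 weeks, against 94.8 to 101 CPM in MRL/+ at 12 weeks and 111 to 161 at 16 weeks. Of those 16, 16 were higher in MRL/lpr at each age. Ptprc, the pan-leukocyte antigen CD45, averaged 57.7 ± 41.6 CPM in MRL/lpr and 2.59 ± 0.682 CPM in MRL/+ at 12 weeks, and 82.3 ± 56.7 CPM in MRL/lpr and 2.43 ± 0.586 CPM in MRL/+ at 16 weeks (SD, n = 6 and 3). In RNA from whole tissue, fewer cells of a type and less RNA per cell cannot be told apart. Some libraries also held RNA of adjoining tissue: 6 cerebellum genes summed to 325 CPM in MRL/+ replicate 1 at 12 weeks against 9.06 to 156 CPM elsewhere, and 6 genes of forebrain excitatory neurons summed to 368 CPM in MRL/lpr replicate 6 at 16 weeks against 9.84 to 72.5 CPM elsewhere. Pineal genes summed to 113 and 84.0 CPM in MRL/lpr replicates 1 and 4 at 12 weeks, and skeletal muscle genes to 519 CPM in MRL/+ replicate 1 at 16 weeks.

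Esrp1, Tlx2, Mcoln3, Scfd2 and Hlf were lower in every MRL/lpr library than in every MRL/+ library of the same age, at both ages. Across all genes tested, 0.837% did so. Sowahb and Arhgap20 met this condition at 12 weeks only, and Ins2, Emx1 and Rd3l at 16 weeks only. The count was therefore 7 of 10 genes at 12 weeks, where 4.98% of all genes did so, and 8 of 10 at 16 weeks, where 8.75% did. By the edgeR fit the same 7 and 8 genes had an adjusted p under 0.05 for a lower level, where 1.34% and 2.64% of all genes did; since this contrast chose the genes, nothing is read from these counts. The median log2 fold change of the 10 genes, MRL/lpr over MRL/+, was -1.33 at 12 weeks and -1.42 at 16 weeks, and the median over all genes tested was -0.013 and 0.025.

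**Figure D1:**
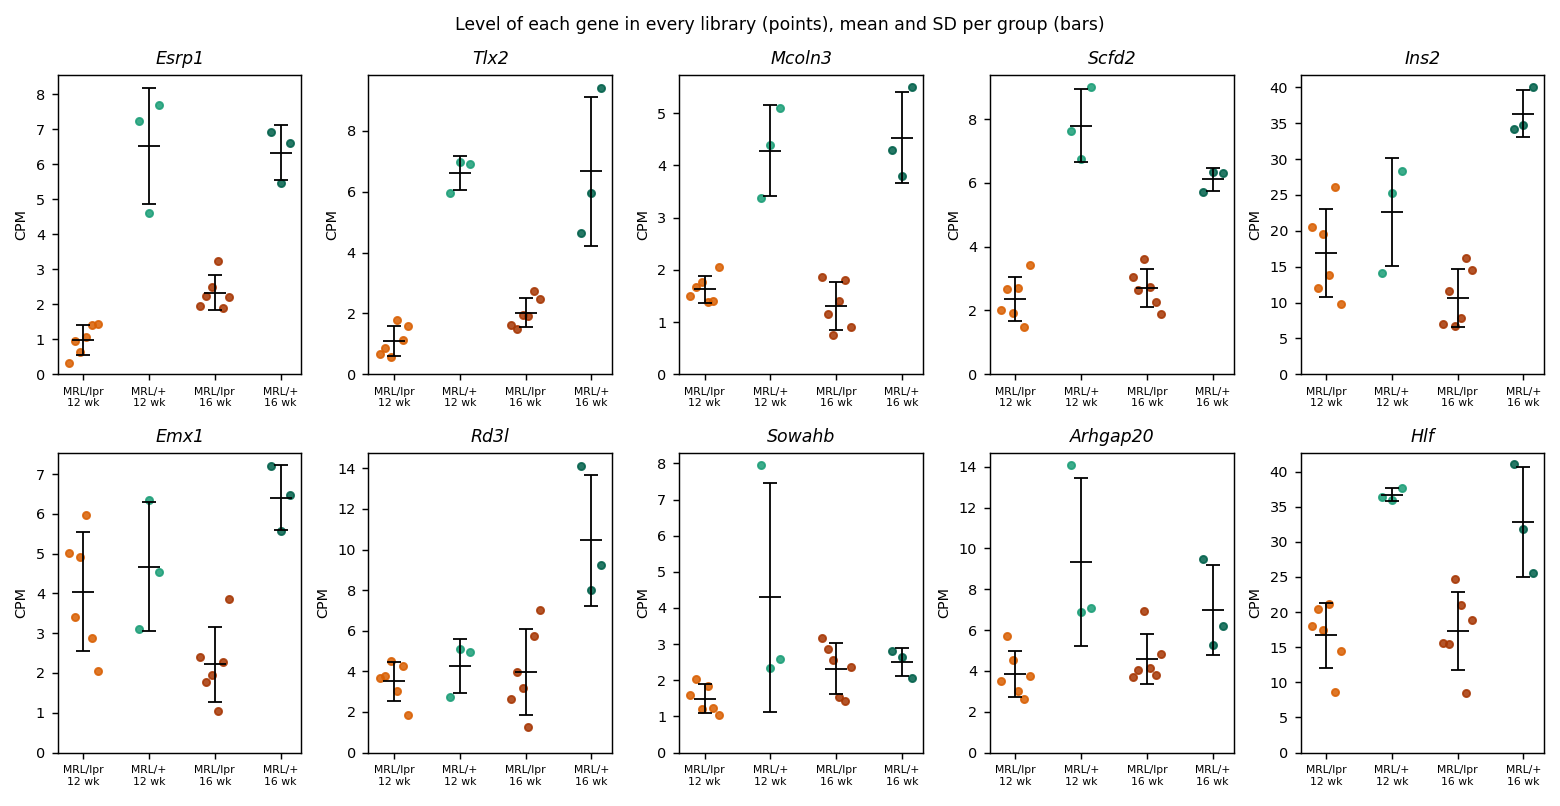
CPM of each of the 10 genes in every library, with 1 panel per gene and its own axis from 0; points are libraries and bars the mean and SD of a group (n = 6 MRL/lpr, n = 3 MRL/+). In Esrp1, Tlx2, Mcoln3, Scfd2 and Hlf the MRL/lpr points lie below all MRL/+ points at both ages, while Ins2, Emx1 and Rd3l overlap at 12 weeks and Sowahb and Arhgap20 at 16 weeks.

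Per kilobase of the exons counted, Ins2 had the highest level in all 4 groups, at 12.9 (12 weeks) and 8.13 CPM per kb (16 weeks) in MRL/lpr, and at 17.2 (12 weeks) and 27.7 CPM per kb (16 weeks) in MRL/+. In MRL/+ at 12 weeks Hlf followed at 5.49 and Tlx2 at 4.18 CPM per kb, and the remaining genes lay between 0.738 CPM per kb (Arhgap20) and 2.17 CPM per kb (Rd3l). Most of these genes are thus expressed at a low level, and single libraries can hold few reads of them, down to 4 counts of Esrp1.

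Among the regulators of RNA and transcription, Esrp1 (chromosome 4, 11331933 to 11386783) had the largest difference of the 10 at 12 weeks. Its lowest, median and highest levels in MRL/lpr at 12 weeks were 0.334, 0.997 and 1.44 CPM, against 7.25, 4.62 and 7.69 CPM in MRL/+ replicates 1, 2 and 3. At 16 weeks they were 1.89, 2.23 and 3.24 CPM in MRL/lpr, against 6.93, 5.46 and 6.62 CPM in MRL/+ replicates 1, 2 and 3. The groups were well apart at both ages, and the highest MRL/lpr library stayed under the lowest MRL/+ library. The log2 fold change was -2.74 (SE 0.31), or 6.67-fold lower, at 12 weeks and -1.44 (SE 0.31), or 2.7-fold lower, at 16 weeks. Its paralog Esrp2, which codes for the other epithelial splicing regulator, averaged 5.40 ± 1.30 CPM in MRL/lpr and 7.77 ± 0.397 CPM in MRL/+ at 12 weeks, and 4.998 ± 0.996 CPM in MRL/lpr and 5.88 ± 0.501 CPM in MRL/+ at 16 weeks, and passed the test at neither age.

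Tlx2 (chromosome 6, 83068324 to 83070293), a homeobox factor known from neural crest and enteric neurons, resembled Esrp1. In MRL/lpr at 12 weeks its lowest, median and highest levels were 0.564, 1.001 and 1.77 CPM, against 5.97, 6.97 and 6.90 CPM in MRL/+ replicates 1, 2 and 3. In the 16-week libraries these levels were 1.47, 1.94 and 2.74 CPM in MRL/lpr, against 4.65, 5.95 and 9.41 CPM in MRL/+ replicates 1, 2 and 3. No library of 1 strain reached into the range of the other. MRL/lpr over MRL/+, the log2 fold change was -2.57 (SE 0.32) at 12 weeks and -1.72 (SE 0.31) at 16 weeks. Over the 18 libraries, Tlx2 was the gene whose log2 CPM was most like that of Esrp1, and Esrp1 the gene most like Tlx2, of all genes tested (Pearson r = 0.93, as a description, with the strain difference of both genes included). Its paralogs Tlx1 and Tlx3 did not pass the filter on low counts, and the Tlx1 row held 1 count over all libraries.

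Emx1 (chromosome 6, 85187438 to 85204462), a homeobox factor of the dorsal forebrain, differed at 16 weeks and overlapped at 12 weeks. Its lowest, median and highest levels in MRL/lpr at 12 weeks were 2.05, 4.16 and 5.98 CPM, against 3.11, 6.35 and 4.55 CPM in MRL/+ replicates 1, 2 and 3. The same 3 levels at 16 weeks were 1.03, 2.11 and 3.85 CPM in MRL/lpr, against 7.19, 5.56 and 6.46 CPM in MRL/+ replicates 1, 2 and 3. This gave a log2 fold change of -0.21 (SE 0.36) at 12 weeks, within its error of 0, and -1.53 (SE 0.35) at 16 weeks. The highest MRL/lpr library at 16 weeks was replicate 6, the one with the high forebrain neuron genes, and without it the log2 fold change at 16 weeks was -1.76. Its paralog Emx2 averaged 2.87 ± 1.31 CPM in MRL/lpr and 2.08 ± 0.660 CPM in MRL/+ at 12 weeks, and 2.42 ± 0.878 CPM in MRL/lpr and 2.10 ± 1.24 CPM in MRL/+ at 16 weeks, and passed the test at neither age.

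Hlf (chromosome 11, 90336536 to 90390895) was the smallest of the differences that held at both ages. Its lowest, median and highest levels in MRL/lpr at 12 weeks were 8.62, 17.8 and 21.2 CPM, against 36.4, 36.0 and 37.7 CPM in MRL/+ replicates 1, 2 and 3. For 16 weeks the levels were 8.51, 17.2 and 24.7 CPM in MRL/lpr, against 41.1, 31.9 and 25.5 CPM in MRL/+ replicates 1, 2 and 3. At 16 weeks the groups were barely apart, with the highest MRL/lpr library next to the lowest MRL/+ library. With size factors of DESeq2 in place of TMM these libraries crossed. As a log2 fold change the difference was -1.14 (SE 0.27) at 12 weeks and -0.92 (SE 0.27) at 16 weeks. The lowest value of Hlf at either age came from MRL/lpr replicate 5 of that age.

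Of the endosomal and trafficking genes, Mcoln3 (chromosome 3, 146117450 to 146141806) showed the most even separation. Its lowest, median and highest levels in MRL/lpr at 12 weeks were 1.38, 1.58 and 2.05 CPM, against 3.37, 4.39 and 5.10 CPM in MRL/+ replicates 1, 2 and 3. In the 16-week libraries these levels were 0.753, 1.28 and 1.87 CPM in MRL/lpr, against 4.30, 3.80 and 5.504 CPM in MRL/+ replicates 1, 2 and 3. No library of 1 strain lay within the range of the other at either age. The log2 fold change was -1.39 (SE 0.27) at 12 weeks and -1.78 (SE 0.27) at 16 weeks. Next to it on the chromosome, 8 kb away, lies its paralog Mcoln2, another endolysosomal channel, which went the other way: it averaged 2.80 ± 1.73 CPM in MRL/lpr and 0.320 ± 0.131 CPM in MRL/+ at 12 weeks (log2 fold change 3.10, edgeR adjusted p 0.018), and 3.34 ± 2.08 CPM in MRL/lpr and 0.291 ± 0.130 CPM in MRL/+ at 16 weeks (3.48, edgeR adjusted p 0.0081). Mcoln2 held only 13 and 10 counts over the MRL/+ libraries at 12 and 16 weeks, so its fold changes rest on a reference near the floor. The Mcoln2 call at 12 weeks was lost without MRL/+ replicate 1, 2 or 3 of that age (edgeR adjusted p up to 0.103), and that at 16 weeks without MRL/+ replicate 2 or 3 (up to 0.0575). Mcoln1, the widely expressed member of this channel family, averaged 30.2 ± 5.39 CPM in MRL/lpr and 32.6 ± 6.29 CPM in MRL/+ at 12 weeks, and 32.1 ± 3.97 CPM in MRL/lpr and 31.1 ± 4.49 CPM in MRL/+ at 16 weeks.

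Scfd2 (chromosome 5, 74204816 to 74531759) was low in all 12 MRL/lpr libraries. Its lowest, median and highest levels in MRL/lpr at 12 weeks were 1.48, 2.34 and 3.42 CPM, against 7.63, 6.74 and 9.02 CPM in MRL/+ replicates 1, 2 and 3. The same 3 levels at 16 weeks were 1.89, 2.68 and 3.62 CPM in MRL/lpr, against 5.70, 6.34 and 6.30 CPM in MRL/+ replicates 1, 2 and 3. A clear gap separated the strains at both ages. MRL/lpr over MRL/+, the log2 fold change was -1.71 (SE 0.24) at 12 weeks and -1.18 (SE 0.24) at 16 weeks. Its relative Scfd1, a Sec1-family protein of traffic between the endoplasmic reticulum and the Golgi, averaged 103 ± 33.0 CPM in MRL/lpr and 77.1 ± 28.8 CPM in MRL/+ at 12 weeks, and 93.5 ± 25.5 CPM in MRL/lpr and 129 ± 16.0 CPM in MRL/+ at 16 weeks, and passed the test at neither age.

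Ins2 (chromosome 7, 142678656 to 142743381), which encodes preproinsulin, differed mainly at 16 weeks. Its lowest, median and highest levels in MRL/lpr at 12 weeks were 9.77, 16.7 and 26.1 CPM, against 14.1, 25.3 and 28.4 CPM in MRL/+ replicates 1, 2 and 3. At 16 weeks they were 6.78, 9.72 and 16.3 CPM in MRL/lpr, against 34.2, 34.7 and 40.1 CPM in MRL/+ replicates 1, 2 and 3. The groups overlapped at 12 weeks and were far apart at 16 weeks. This gave a log2 fold change of -0.42 (SE 0.32) at 12 weeks and -1.77 (SE 0.31), or 3.42-fold lower, at 16 weeks. Ins1, the near-identical second insulin gene of mice, held 2 counts over all libraries. How the authors treated reads that match both genes is not known, so the Ins2 count is uncertain to that extent.

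Arhgap20 (chromosome 9, 51765337 to 51853856) and Sowahb (chromosome 5, 93041123 to 93045022), an ankyrin-repeat protein, were lower at 12 weeks and overlapped at 16 weeks. Arhgap20 had a lowest, median and highest level of 2.61, 3.63 and 5.73 CPM in MRL/lpr at 12 weeks, against 14.1, 6.90 and 7.06 CPM in MRL/+ replicates 1, 2 and 3, and of 3.68, 4.08 and 6.93 CPM in MRL/lpr at 16 weeks, against 9.47, 5.26 and 6.22 CPM in MRL/+ replicates 1, 2 and 3. Sowahb had a lowest, median and highest level of 1.03, 1.40 and 2.03 CPM in MRL/lpr at 12 weeks, against 7.95, 2.35 and 2.59 CPM in MRL/+ replicates 1, 2 and 3, and of 1.42, 2.47 and 3.16 CPM in MRL/lpr at 16 weeks, against 2.81, 2.63 and 2.07 CPM in MRL/+ replicates 1, 2 and 3. In both genes 1 library, MRL/+ replicate 1 at 12 weeks, stood far above its group. This is the library whose cerebellum genes summed to 325 CPM, and the part of that RNA in the difference was not tested. The log2 fold change at 12 weeks was -1.28 (SE 0.29) for Arhgap20 and -1.53 (SE 0.36) for Sowahb, and without that library -0.83 and -0.71. At 16 weeks it was -0.61 (SE 0.29) for Arhgap20 and -0.10 (SE 0.38) for Sowahb. For both genes that library had the highest MRL/+ level at 12 weeks. Leaving it out could therefore not end the separation of the strains at that age, and nothing is read from the separation that remained.

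Rd3l (chromosome 12, 111979111 to 111981317), a relative of the retinal gene Rd3, had a lowest, median and highest level of 1.85, 3.72 and 4.51 CPM in MRL/lpr at 12 weeks, against 2.73, 5.09 and 4.94 CPM in MRL/+ replicates 1, 2 and 3. For 16 weeks the levels were 1.25, 3.56 and 7.05 CPM in MRL/lpr, against 14.1, 7.99 and 9.25 CPM in MRL/+ replicates 1, 2 and 3. The groups overlapped at 12 weeks and came within 1 CPM of each other at 16 weeks. As a log2 fold change the difference was -0.28 (SE 0.41) at 12 weeks and -1.40 (SE 0.39) at 16 weeks. The highest MRL/lpr library at 16 weeks was again replicate 6, and without it the log2 fold change was -1.64. Rd3l lies inside Tdrd9 on the opposite strand with no shared exon; Tdrd9, a germ line helicase gene, had a log2 fold change of -1.04 at 16 weeks (edgeR adjusted p 0.0128). Rd3, which in the mouse retina regulates guanylate cyclase, averaged 4.93 ± 1.47 CPM in MRL/lpr and 8.85 ± 1.07 CPM in MRL/+ at 16 weeks (log2 fold change -0.84, edgeR adjusted p 0.036); leaving out 1 library ended that call in 6 of 18 fits, with an adjusted p of up to 0.152. At 12 weeks Rd3 averaged 10.6 ± 2.36 CPM in MRL/lpr and 9.75 ± 2.41 CPM in MRL/+ (log2 fold change 0.13, edgeR adjusted p 0.80).

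**Figure D2:**
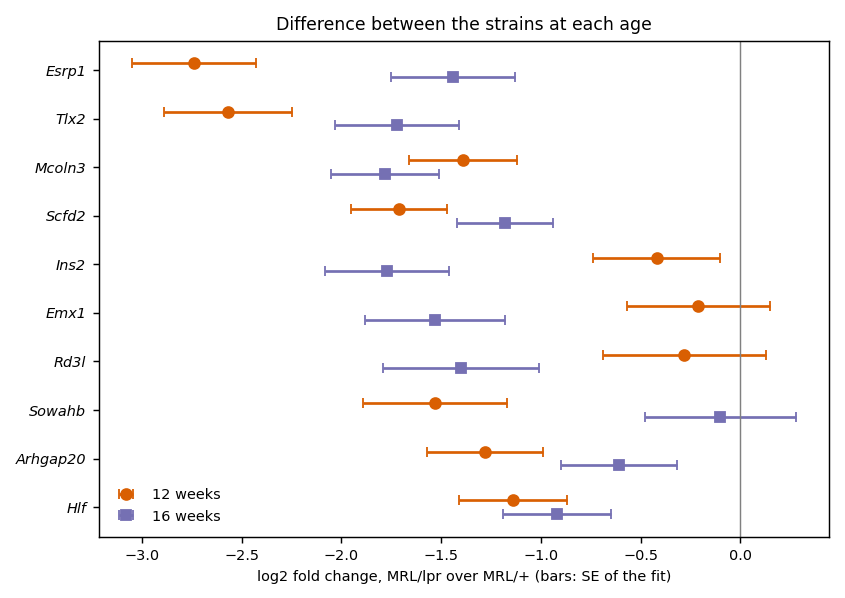
Log2 fold change of MRL/lpr over MRL/+ for the 10 genes at 12 weeks (circles) and 16 weeks (squares), with bars for the SE of the fit. Esrp1 is the farthest from 0 at 12 weeks (-2.74) and Mcoln3 at 16 weeks (-1.78), and Ins2, Emx1, Rd3l and Sowahb each lie near 0 at 1 of the ages.

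How low a gene stands also depends on what the libraries are scaled to. With library sizes set to the sum of the epithelium genes without Ttr, the median over all genes tested moved to 0.30 on the log2 scale at 12 weeks and 0.73 at 16 weeks. On this scale Tlx2 and Mcoln3 alone among the 10 were lower in every MRL/lpr library at both ages, with log2 fold changes of -1.06 and -1.11 at 16 weeks. The share of all genes that met this condition was not computed on this scale. Esrp1 stood at -0.72, Scfd2 at -0.42 and Hlf at -0.14 at 16 weeks, each of which is lower than the shifted median. Arhgap20 and Sowahb stood at 0.15 and 0.66 at 16 weeks, and Emx1 and Rd3l at 0.17 and 0.09 at 12 weeks. These values too are lower than the shifted median of the same age.

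Whether the 10 genes followed the infiltrate was examined among the 12 MRL/lpr libraries, in which Ptprc ran from 12.0 to 152.8 CPM. The slope is the log2 change of a gene for each log2 unit of Ptprc, fitted with edgeR with age as a covariate, over 15345 genes. Of the 10 genes, 2 fell with Ptprc and 0 rose, where 7.56% and 13.2% of all genes did. The proposal named this relation, so the slopes check it and support nothing further.

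For 7 genes the 95% interval of the slope held 0. Esrp1 had a slope of 0.03 (-0.26 to 0.32), Hlf 0.03 (-0.23 to 0.28), Sowahb 0.01 (-0.25 to 0.27) and Arhgap20 -0.01 (-0.25 to 0.22). Tlx2 had a slope of -0.14 (-0.41 to 0.13), Mcoln3 0.16 (-0.08 to 0.40) and Scfd2 0.19 (-0.02 to 0.40). An interval that holds 0 does not show that a gene is unrelated to Ptprc. Only that of Tlx2 reaches the slope of -0.31 found for Ins2 and Emx1.

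Rd3l and Ins2 went against the proposal. Rd3l fell with Ptprc at a slope of -0.44 (95% interval -0.69 to -0.20, edgeR adjusted p 0.0179), and Ins2 at -0.31 (-0.53 to -0.09, edgeR adjusted p 0.0499). Emx1 had the same slope as Ins2, -0.31 (-0.57 to -0.05), with an edgeR adjusted p of 0.0846. These are also the 3 genes that were lower in every MRL/lpr library at 16 weeks and not at 12 weeks. In MRL/lpr replicate 6 at 16 weeks, which had the least Ptprc (12.0 CPM), Rd3l and Emx1 were at their highest for that group. In MRL/lpr replicate 4 at 16 weeks, with 137 CPM of Ptprc, both were at their lowest. Replicate 6 at 16 weeks is also the library whose forebrain neuron genes summed to 368 CPM. The part of that RNA in its Rd3l and Emx1 levels, and so in the slopes, was not tested. With the mean of the 16 leukocyte genes in place of Ptprc, the slope of Rd3l was -0.44 (edgeR adjusted p 0.0518) and that of Ins2 -0.27 (edgeR adjusted p 0.161). Leaving out 1 library ended the call of Ins2 in 9 of 12 fits (edgeR adjusted p 0.0282 to 0.179), and that of Rd3l in 2 of 12 (0.014 to 0.0772), those without MRL/lpr replicate 6 at 12 weeks (0.0633) or at 16 weeks (0.0772). Ins2 stayed called without MRL/lpr replicate 1 or 4 at 12 weeks or replicate 2 at 16 weeks. Scaled to the epithelium genes, where the median slope of all genes was 0.12, the slopes were -0.25 for Rd3l and -0.15 for Ins2 (edgeR adjusted p 0.178 and 0.314).

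**Figure D3:**
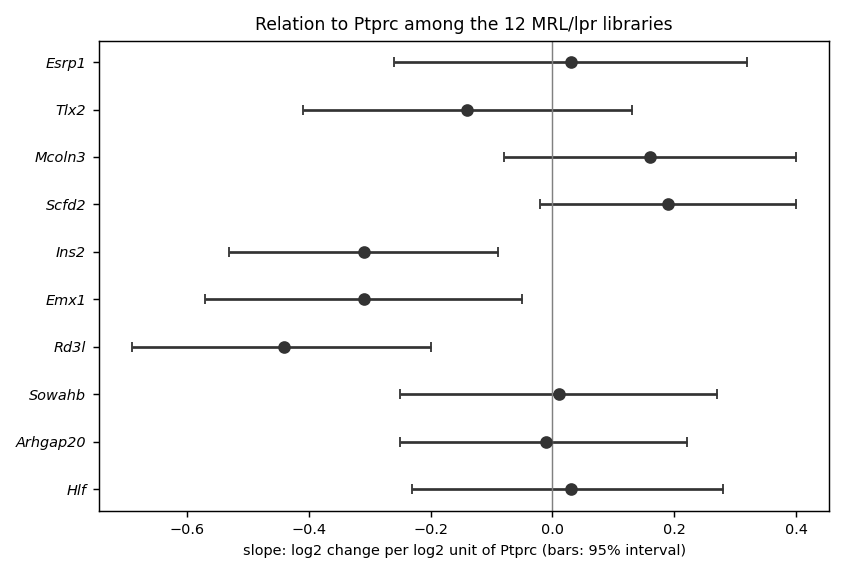
Slope of each gene on Ptprc among the 12 MRL/lpr libraries, in log2 units per log2 unit, with 95% intervals from the fit with age as a covariate. The intervals of Ins2, Emx1 and Rd3l lie below 0 and those of the other 7 genes cross it.

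**Figure D4:**
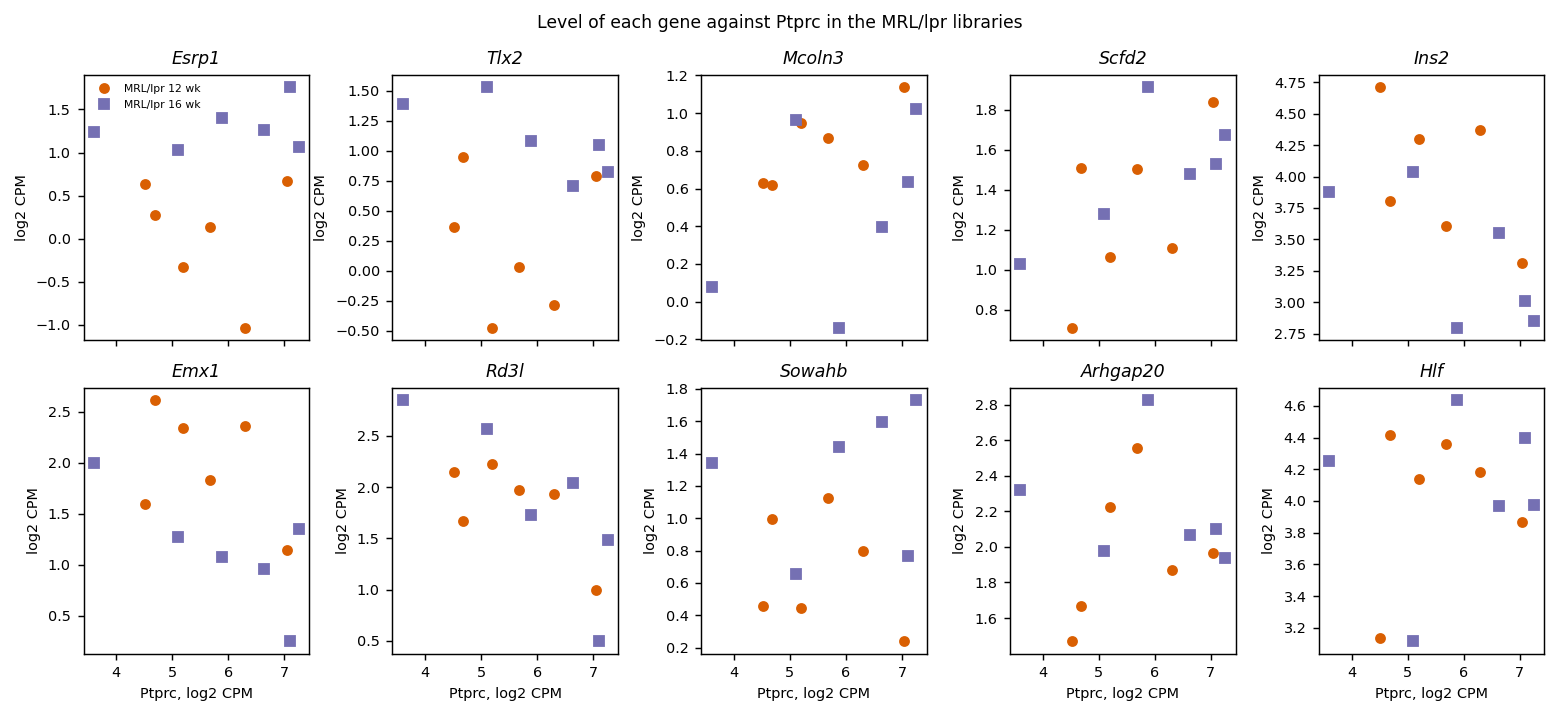
Log2 CPM of each gene against log2 CPM of Ptprc in the MRL/lpr libraries, 6 at 12 weeks (circles) and 6 at 16 weeks (squares). Rd3l slopes downward, most at 16 weeks, and Esrp1, Sowahb, Arhgap20 and Hlf show no slope that can be told from 0.

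Within the 6 MRL/lpr libraries of 1 age, 20 correlations with Ptprc were computed, and none passed after adjustment over the 20. Rd3l at 16 weeks had the smallest p, with Pearson r = -0.83 (exact two-sided permutation p = 0.0167, adjusted p = 0.333) and Spearman rho = -0.89 (exact permutation p = 0.0333, adjusted p = 0.54). Without the 2 libraries farthest from the median of Ptprc its r was -0.51. At 12 weeks r was -0.67 for Rd3l (exact permutation p = 0.161, adjusted p = 0.46) and -0.57 for Ins2 (exact permutation p = 0.239, adjusted p = 0.531). Both turned positive, to 0.30 and 0.39, without the 2 libraries farthest from the median. Leaving those out narrows the range of Ptprc, so this cannot settle what a relation rests on. At 16 weeks r was -0.78 for Tlx2, -0.76 for Emx1, -0.71 for Ins2 and 0.70 for Scfd2. For Mcoln3 at 12 weeks it was 0.75. These had exact permutation p of 0.0833 to 0.128 and an adjusted p of 0.426. Without the 2 farthest libraries they were, in this order, -0.35, -0.19, 0.07, -0.67 and 0.19.

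The genes did not move as 1 block among the MRL/lpr libraries. Over the 45 pairs of these genes, the correlation of log2 CPM around the group means in the 12 libraries ran from -0.93 to 0.75 with a median of -0.09, as a description of values that share libraries and depth. Ins2 and Rd3l (0.75), Emx1 and Rd3l (0.71), Arhgap20 and Hlf (0.62) and Esrp1 and Tlx2 (0.57) varied together. Scfd2 varied against Ins2 (-0.93) and against Rd3l (-0.63). MRL/lpr replicate 5 at 12 weeks had the lowest Scfd2 (1.48 CPM) and the highest Ins2 (26.1 CPM) of its group.

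Age was compared within each strain. These comparisons share libraries with the strain comparisons that chose the genes, and whether the strain difference itself changed with age was not tested for that reason. No gene of the 10 passed the edgeR test in MRL/lpr, where 0.0181% of all genes were called lower and 0.0181% higher at 16 weeks, or in MRL/+, where 0% were called in each direction. At an unadjusted p under 0.05 there were 1117 genes in MRL/lpr, 4 of them from the 10, and 2173 genes in MRL/+, 1 of them from the 10.

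Esrp1 had the largest of these age differences in MRL/lpr, with 2.34 ± 0.495 CPM at 16 weeks and 0.967 ± 0.427 CPM at 12 weeks (SD, n = 6 each). Every library at 16 weeks was above every library at 12 weeks. The log2 fold change, 16 over 12 weeks, was 1.26 (95% interval 0.67 to 1.85, edgeR adjusted p 0.154), and DESeq2 gave it an adjusted p of 0.00463. Tlx2 averaged 2.03 ± 0.488 CPM at 16 weeks and 1.10 ± 0.491 CPM at 12 weeks (0.87, interval 0.27 to 1.46, edgeR adjusted p 0.467). Emx1 went the other way, with 2.21 ± 0.934 CPM at 16 weeks and 4.04 ± 1.495 CPM at 12 weeks (-0.87, interval -1.51 to -0.23, edgeR adjusted p 0.561), as did Ins2, with 10.7 ± 4.07 CPM at 16 weeks and 17.0 ± 6.15 CPM at 12 weeks (-0.67, interval -1.24 to -0.10, edgeR adjusted p 0.631).

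In MRL/+ the gene with the largest age difference was Rd3l, with 10.5 ± 3.24 CPM at 16 weeks and 4.26 ± 1.32 CPM at 12 weeks (log2 fold change 1.30, interval 0.29 to 2.30, edgeR adjusted p 0.379; SD, n = 3 each). Ins2 in MRL/+ stood at 36.3 ± 3.28 CPM at 16 weeks and 22.6 ± 7.52 CPM at 12 weeks (0.69, interval -0.10 to 1.48, edgeR adjusted p 0.401). Esrp1, Tlx2, Mcoln3 and Hlf in MRL/+ differed between the ages by -0.16 to 0.08 on the log2 scale.

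Genes related in function were taken as 7 lists of 88 distinct genes, 80 of which were tested. Lower in MRL/lpr were 6 at 12 weeks and 11 at 16 weeks, and higher were 2 and 5. Over all genes 1.34% and 2.64% were called lower and 5.01% and 8.49% higher. The counts of lower genes include Dmgdh and Bhmt2, from the choline breakdown list, at both ages. These were picked earlier from these same libraries for being low in MRL/lpr, so the counts are not independent evidence to that extent. Of the epithelial identity list 1 of 13 tested genes fell at each age and 0 rose: Grhl2, an epithelial transcription factor, averaged 0.175 ± 0.0873 CPM in MRL/lpr and 0.520 ± 0.194 CPM in MRL/+ at 12 weeks (log2 fold change -1.53, edgeR adjusted p 0.042), and 0.115 ± 0.0614 CPM in MRL/lpr and 0.918 ± 0.256 CPM in MRL/+ at 16 weeks (-2.89, edgeR adjusted p 0.0014). The median log2 fold change of that list was -0.37 at 12 weeks and -0.31 at 16 weeks. The call of Grhl2 at 12 weeks was lost in 13 of 18 fits that left out 1 library, with an adjusted p of up to 0.263, and that at 16 weeks in 0. Grhl2 held only 14 and 9 counts over all MRL/lpr libraries at 12 and 16 weeks, and 22 and 31 over the MRL/+ libraries. It passed the filter on low counts through MRL/+ libraries, so its fold changes lie near the floor.

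Of 12 tested homeobox genes of the forebrain and choroid plexus, 1 fell at 12 weeks and 3 at 16 weeks, with list medians of -0.26 and -0.10. Msx2, a homeobox factor of dorsal midline and choroid plexus development, averaged 2.35 ± 0.694 CPM in MRL/lpr and 4.34 ± 0.759 CPM in MRL/+ at 12 weeks (edgeR adjusted p 0.037), and 2.42 ± 0.424 CPM in MRL/lpr and 4.54 ± 0.716 CPM in MRL/+ at 16 weeks (edgeR adjusted p 0.023). Msx1 fell at 16 weeks, by 0.57 on the log2 scale (edgeR adjusted p 0.013), and Lmx1a, which marks the dorsal midline, by 0.37 (edgeR adjusted p 0.028). Scaled to the epithelium genes, Msx1 and Lmx1a stood at 0.09 and 0.32, both below the median of all genes on that scale, 0.73. With 1 library left out, the call of Msx2 was lost in 9 of 18 fits at 12 weeks and 5 of 18 at 16 weeks (edgeR adjusted p up to 0.18 and 0.113) and that of Lmx1a in 7 (up to 0.101), and that of Msx1 without MRL/+ replicate 3 at 16 weeks (0.108). Msx2 was also the gene whose level over the 18 libraries was most like that of Scfd2 (r = 0.91).

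Around Hlf, 17 genes of the clock and its PAR bZIP output were tested. At 12 weeks 1 fell and 0 rose, and at 16 weeks 1 fell and 2 rose, with list medians of -0.08 and 0.32. Clock, a core activator of the circadian clock, fell at both ages, by 0.62 and 0.59 (edgeR adjusted p 0.048 and 0.044), and leaving out 1 library ended these calls in 15 and 13 of 18 fits (up to 0.197 and 0.178). Scaled to the epithelium genes, Clock stood at 0.08 at 16 weeks, below the median of all genes on that scale, 0.73. Per1 and Per2, its repressors, rose at 16 weeks by 0.66 and 0.85 (edgeR adjusted p 0.014 and 0.024). These calls were lost without MRL/+ replicate 1 or 3 at 16 weeks, and for Per2 also without replicate 2 (up to 0.0855 and 0.11). At 16 weeks Per1 averaged 34.6 ± 6.06 CPM in MRL/lpr and 21.9 ± 2.53 CPM in MRL/+. At 12 weeks it lay on the other side, at 32.5 ± 4.67 CPM in MRL/lpr and 40.1 ± 4.64 CPM in MRL/+ (log2 fold change -0.30, edgeR adjusted p 0.264), so its MRL/lpr level was close at both ages and its MRL/+ level was the lower one at 16 weeks. Per2 at 12 weeks had a log2 fold change of 0.19 (edgeR adjusted p 0.646). With age, Dbp, a PAR bZIP relative of Hlf, averaged 11.1 ± 4.55 CPM in MRL/lpr at 16 weeks and 30.1 ± 8.02 CPM at 12 weeks (log2 fold change -1.44, edgeR adjusted p 0.04), a call lost in 16 of 18 fits with 1 library left out (up to 0.126). Hlf itself differed by 0.06 (interval -0.42 to 0.54) between the ages in MRL/lpr. The labels do not give the time of day at which tissue was taken.

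The insulin and IGF list had 0 of 15 tested genes called at 12 weeks and 1 lower at 16 weeks. This was Igf2, the growth factor gene beside Ins2, which averaged 3321 ± 605 CPM in MRL/lpr and 5326 ± 1277 CPM in MRL/+ (log2 fold change -0.68, edgeR adjusted p 0.025). That call was lost without MRL/lpr replicate 1 or 3 or MRL/+ replicate 3 of that age (up to 0.185). The endolysosomal channel and Sec1-family list had 11 genes, of which 1 rose at 12 weeks, and 2 rose and 1 fell at 16 weeks. The genes were Mcoln2 as above, Tpcn2, a lysosomal channel that rose by 0.70 (edgeR adjusted p 0.027), and Stxbp3, a Sec1-family partner of syntaxins that fell by 0.92 (edgeR adjusted p 0.017), both at 16 weeks. At 12 weeks Tpcn2 stood at -0.17 and Stxbp3 at -0.13 (edgeR adjusted p 0.627 and 0.776). Of 12 tested paralogs of the 10 genes, 1 fell and 2 rose at 12 weeks, and 2 fell and 2 rose at 16 weeks. Besides Mcoln2 and Rd3 these were Tagap, a GTPase-activating protein of T cells that rose by 1.48 and 1.67 (edgeR adjusted p 0.016 and 0.0059), and Sowahc, which fell by 0.66 and 0.65 (edgeR adjusted p 0.046 and 0.034). With 1 library left out these calls were lost for Tpcn2 in 5 of 18 fits (up to 0.108), for Stxbp3 without MRL/+ replicate 1 or 2 at 16 weeks (up to 0.104), for Tagap without MRL/+ replicate 1, 2 or 3 at 12 weeks (up to 0.106), and for Sowahc in 13 of 18 fits at 12 weeks and 7 at 16 weeks (up to 0.192 and 0.147).

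The last list, choline breakdown, holds Dmgdh, a mitochondrial enzyme of that pathway, and Bhmt2. Both genes were picked earlier from these same libraries for being low in MRL/lpr. The count for this list, 2 of 7 lower at each age, is therefore not independent evidence. Dmgdh had log2 fold changes of -2.86 and -2.95 and Bhmt2 of -1.93 and -2.09 at 12 and 16 weeks, so Dmgdh exceeded all of the 10 genes in size at both ages. Their slopes on Ptprc were 0.00 (-0.14 to 0.13) and -0.16 (-0.30 to -0.03, edgeR adjusted p 0.083). Choroid plexus epithelium genes were called in 0 of 18 cases at 12 weeks, and at 16 weeks 2 of 18 fell, Prlr (the prolactin receptor, by 1.10) and Htr2c (a serotonin receptor, by 0.68), with edgeR adjusted p of 0.044 and 0.046. None of the 18 was called for a slope on Ptprc by edgeR.

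The 10 genes lie on 8 chromosomes, with Tlx2 and Emx1 both on chromosome 6 and Scfd2 and Sowahb both on chromosome 5. Of the 20 nearest tested genes on either side, 1 fell at 12 weeks and 0 at 16 weeks, and 1 rose at each age. The gene that fell was Gm37092, a gene model 4.3 kb from Tlx2, at -1.86 (edgeR adjusted p 0.0037) at 12 weeks and -0.56 (edgeR adjusted p 0.28) at 16 weeks, and the gene that rose was Mcoln2. A window of 2 Mb to each side, a width set after the values had been seen, held 401 distinct further genes, of which 11 (2.74%) were lower and 21 higher at 12 weeks, and 19 (4.74%) were lower and 32 higher at 16 weeks. Over all genes tested, 1.34% and 2.64% were lower. Near Tlx2 these included the homeobox gene Lbx2, at -1.40 and -1.68 (edgeR adjusted p 0.0409 and 0.0128), calls lost in 11 and 2 of 18 fits with 1 library left out (up to 0.166 and 0.0722), at 16 weeks those without MRL/+ replicate 1 or 3. Lbx2 held only 34 and 27 counts over all MRL/lpr libraries at 12 and 16 weeks, and 46 and 39 over the MRL/+ libraries. Its fold changes thus lie near the floor. Near Scfd2, 3 of 26 genes were lower at both ages, Slain2, Usp46 and Clock, by 0.40 to 0.62 on the log2 scale. Of all genes tested, 0.349% were called lower at both ages. In this order the edgeR adjusted p was 0.0457, 0.0474 and 0.0484 at 12 weeks and 0.035, 0.0353 and 0.0435 at 16 weeks. The Clock calls were lost in 15 and 13 of 18 fits with 1 library left out. No such result is given for Slain2 and Usp46. No gene within 2 Mb of Hlf was called at either age. The window of Rd3l takes in part of the immunoglobulin heavy chain locus, which accounts for many of its 20 genes that rose at 16 weeks, such as Ighm at 5.93.

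**Figure D5:**
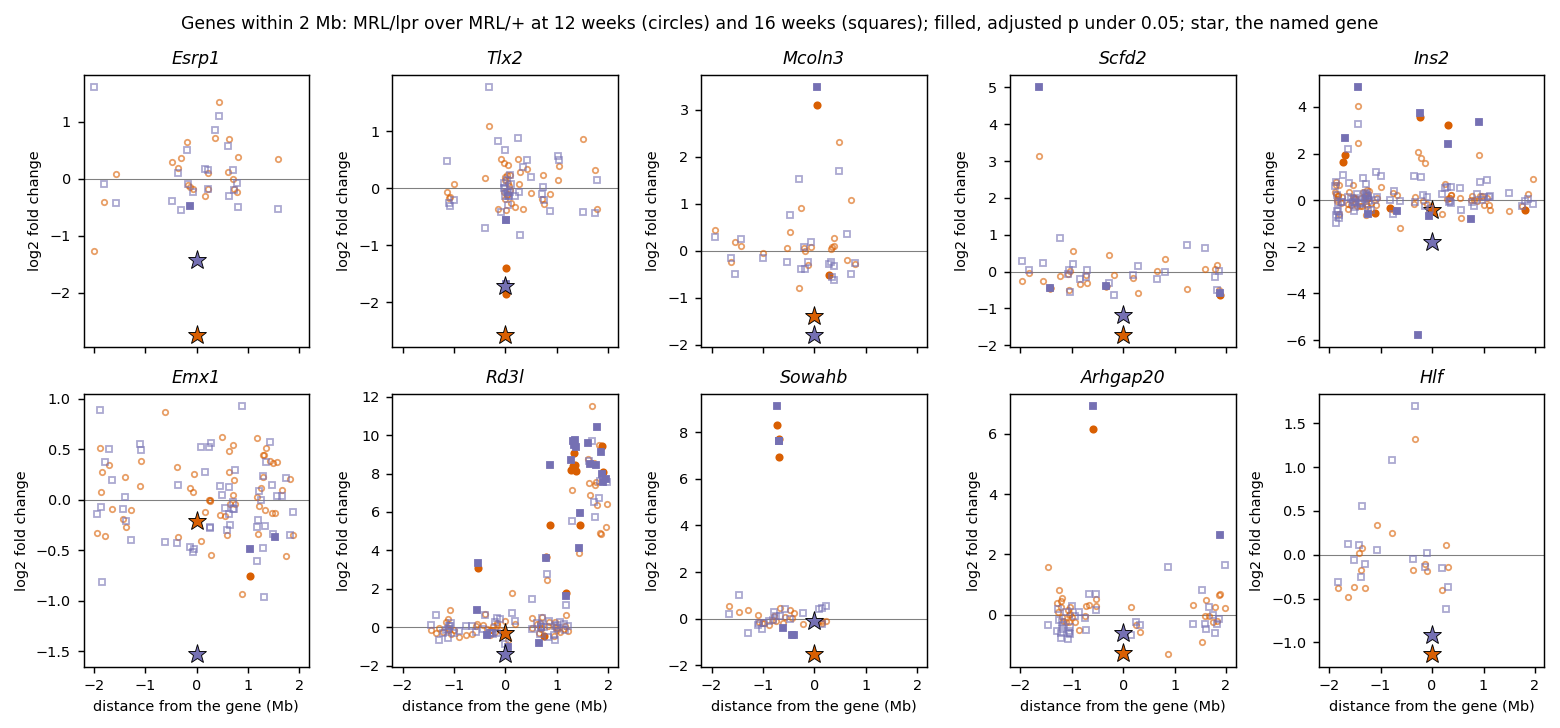
Log2 fold change of MRL/lpr over MRL/+ for all tested genes within 2 Mb of each of the 10 genes, against distance in Mb, at 12 weeks (circles) and 16 weeks (squares); filled symbols have an edgeR adjusted p under 0.05 and stars mark the named gene. Around Esrp1, Mcoln3, Scfd2 and Hlf no neighbour is as low as the named gene, Lbx2 and Gm37092 lie low beside Tlx2, and immunoglobulin genes stand high to the right of Rd3l.

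Promoter sequence was at hand for 7 of the 10 genes, from RefSeq on GRCm38.p6, as 250 bases before to 50 bases after the annotated start. Those of Mcoln3, Scfd2 and Hlf are printed because these genes were lower in every MRL/lpr library at both ages, and that of Rd3l because it had the steepest slope on Ptprc. They lie at chr3:146121541-146121840 on the plus strand (Mcoln3), chr5:74531693-74531992 on the minus strand (Scfd2), chr11:90390868-90391167 on the minus strand (Hlf) and chr12:111980702-111981001 on the minus strand (Rd3l). Capitals mark a match to a searched motif.
Mcoln3: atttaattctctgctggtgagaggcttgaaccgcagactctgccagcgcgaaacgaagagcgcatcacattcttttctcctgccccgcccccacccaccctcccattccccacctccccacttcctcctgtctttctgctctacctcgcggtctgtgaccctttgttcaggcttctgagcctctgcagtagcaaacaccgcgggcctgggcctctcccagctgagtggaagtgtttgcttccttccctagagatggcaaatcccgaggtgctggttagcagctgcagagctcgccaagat
Scfd2: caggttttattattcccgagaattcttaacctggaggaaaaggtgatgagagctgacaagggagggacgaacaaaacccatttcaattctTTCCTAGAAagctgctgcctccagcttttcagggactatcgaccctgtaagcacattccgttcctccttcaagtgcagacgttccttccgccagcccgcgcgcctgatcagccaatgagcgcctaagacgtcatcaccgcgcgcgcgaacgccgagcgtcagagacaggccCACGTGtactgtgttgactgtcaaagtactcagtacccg
Hlf: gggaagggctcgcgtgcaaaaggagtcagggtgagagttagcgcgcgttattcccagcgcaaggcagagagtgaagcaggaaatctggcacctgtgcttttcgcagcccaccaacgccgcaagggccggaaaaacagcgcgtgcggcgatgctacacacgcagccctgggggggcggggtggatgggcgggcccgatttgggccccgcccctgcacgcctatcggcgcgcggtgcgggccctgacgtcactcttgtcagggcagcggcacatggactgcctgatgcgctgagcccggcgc
Rd3l: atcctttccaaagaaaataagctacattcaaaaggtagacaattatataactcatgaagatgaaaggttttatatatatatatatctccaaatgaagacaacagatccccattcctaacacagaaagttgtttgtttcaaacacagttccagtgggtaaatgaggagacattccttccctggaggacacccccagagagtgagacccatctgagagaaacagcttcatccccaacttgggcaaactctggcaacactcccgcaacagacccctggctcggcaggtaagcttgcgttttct
The motifs, searched on both strands, were TAATCC, bound by OTX2-type homeodomains (in 7.06% of 32851 promoters of the same length), the E-box CACGTG (7.15%), the D-box TTATGTAA of PAR bZIP factors (0.938%) and the GAS element TTCNNNGAA of STAT factors (8.3%). Scfd2 held the E-box, with its first base 12 bases after the start, and a GAS element 160 bases before it. The promoters of the other 6 genes held none of the 4. The GC content was 57.7% for Mcoln3, 53.3% for Scfd2, 67.3% for Hlf and 42.7% for Rd3l, against a median of 52.7% over all promoters. Among the 7, Rd3l alone was below that median, and Arhgap20 was highest at 77.0%.

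By the same measure of likeness over the 18 libraries, the genes most like the others were Flcn for Mcoln3 (r = 0.93), Rfk for Ins2 (0.96), Gt(ROSA)26Sor for Emx1 (0.90), Cep19 for Rd3l (0.96), Dusp8 for Sowahb (0.90), Ppip5k1 for Arhgap20 (0.86) and Scfd2 for Hlf (0.83). Around the group means, which takes out strain and age, they were Synj2 for Esrp1 (0.90), Plekha7 for Tlx2 (0.84), Ccdc117 for Mcoln3 (0.89), Rbak for Scfd2 (0.90), Ift57 for Ins2 (0.96), Srp19 for Emx1 (0.90), Pcsk2os1 for Rd3l (0.97), Kcne1l for Sowahb (0.95), Lgr5 for Arhgap20 (0.90) and Trpm6 for Hlf (0.88). Each is the highest value among all genes tested. The pairing of Esrp1 with Tlx2 was thus not the closest for either gene once the group means were taken out.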

How the data were processed

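RNA of the choroid plexus was extracted with a column kit, made into libraries with a TruSeq kit and sequenced on a HiSeq2500 over a pair of lanes, per the labels. The deposited values are raw read counts per gene, whole numbers that the authors made with STAR 2.5.3a on GRCm38 and featureCounts 1.26.0, per the submitters' processing notes, which also name DESeq2 1.16.1. No source used here gives the strand setting, annotation release or handling of multiply aligned reads. The exons of Esrp1 and Arhgap20 overlap an antisense gene, with 5 and 2 counts in all libraries. Counts of 18 libraries were grouped by strain and age and fitted together with edgeR 4.0.16 (R 4.3.3, limma 3.58.1): filterByExpr, TMM scaling, robust quasi-likelihood test, Benjamini-Hochberg adjustment over all 16598 genes, called at an adjusted p under 0.05. Levels are CPM on TMM-scaled sizes. Log2 CPM used a prior count of 2. The slope on Ptprc was fitted in the 12 MRL/lpr libraries with age as a covariate. The steps were tested on simulated counts. The smallest chi-square per gene between libraries of 1 group was 6.1, so no library was counted as a repeat. The members, gene lists and libraries left out together were chosen with earlier results of these data known. Named are the 10 genes, called list genes, nearest neighbours, the most alike gene of each and, chosen after their values were seen, Lbx2, Slain2, Usp46, Ighm and Tdrd9. Alternatives were DESeq2 1.42.0 and its size factors, scaling to the epithelium, no filter, a replicate block, leaving out libraries and a leukocyte list in place of Ptprc.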

Additional observations from a re-analysis of the deposited data

Results flagged for a closer look

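Among 20 groups of 6 MRL/lpr libraries (10 genes at each age), 1 held a library far from the others, where chance alone marks about 1 group in 20. Arhgap20 stood at 6.93 CPM in MRL/lpr replicate 3 at 16 weeks, with the next library at 4.83 CPM, a gap of 0.645 of the whole range. That library also had the highest summed level of its group for neuron genes (509.8 CPM), astrocyte genes (617 CPM) and oligodendrocyte genes (599.6 CPM), and the part of such RNA in the Arhgap20 value was not tested.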

How the results depend on the processing

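Depth limits Esrp1, Tlx2 and Mcoln3 most, whose MRL/lpr libraries held 4 to 44 counts. With 1 library left out, 7 to 8 of the 10 genes were lower in every MRL/lpr library at 12 weeks, 8 to 9 at 16 weeks and 5 to 6 at both. Leaving out a library can only relax this condition, apart from small changes in scaling. These counts therefore cannot show how firmly it holds, and no share of all genes was computed beside them. The causes of the changes below were not tested.

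Scaled to the epithelium, 4 of the genes were lower in every MRL/lpr library at 16 weeks and 2 at both ages, with no share of all genes computed beside these counts, and 0 were called lower for the slope. All genes called lower then numbered 10 at 12 weeks, 27 at 16 weeks (7082 higher), 0 for age in MRL/lpr and 11 for the slope, with 2 list genes lower at 12 weeks and 3 lower and 26 higher at 16 weeks. Clock, Lmx1a and Msx1 stood at 0.08, 0.32 and 0.09 at 16 weeks, below the median of all genes, 0.73. Tlx2 with age in MRL/+ stood at -0.07 (median -0.16) and the slope of Arhgap20 at 0.13 (median 0.12). DESeq2 size factors gave 130 genes and 3 list genes lower at 12 weeks. Without a filter, 61 genes and 2 list genes were lower at 12 weeks, 171 and 5 at 16 weeks, and 741 and 1 of the 10 for the slope. The DESeq2 test called 1336 genes higher at 12 weeks, 8 list genes higher at 16 weeks, 47 lower and 37 higher with age in MRL/lpr (1 of the 10), 8 lower and 4 higher with age in MRL/+, and 1802 lower for the slope. With the leukocyte list, 289 genes and 0 of the 10 were lower for the slope.

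Libraries of the same number did not deviate together as a set (15 pairs, r -0.619 to 0.45, 4 over 0.1). With so few libraries this cannot show whether the numbers pair samples, which is not known. The fit with the replicate block gave 212 genes lower at 16 weeks, 7 list genes lower and 3 higher, 0 genes lower and 1 higher with age in MRL/lpr, Tlx2 at -0.02 with age in MRL/+, and slopes of -0.20 for Sowahb and -0.09 for Hlf. With the block the slope was called for Rd3l (-0.53, edgeR adjusted p 0.0157) and Emx1 (-0.53, 0.0201) and not for Ins2 (-0.28, 0.111).

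Without MRL/lpr replicates 1 and 4 and MRL/+ replicate 1 at 12 weeks and MRL/+ replicate 1 at 16 weeks, 6 genes were lower and 28 higher at 12 weeks, 53 lower and 450 higher at 16 weeks, and 0 lower and 0 higher with age in MRL/lpr. List genes then numbered 2 lower and 0 higher at 12 weeks and 2 lower and 0 higher at 16 weeks.

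With 1 library left out, genes lower ranged from 34 to 494 and higher from 225 to 1009 at 12 weeks, lower from 92 to 879 and higher from 563 to 1717 at 16 weeks, lower from 0 to 6 and higher from 1 to 3 with age in MRL/lpr, and lower from 182 to 1336 for the slope (0 to 3 of the 10). List genes ranged from 2 to 8 lower and 0 to 2 higher at 12 weeks, and 5 to 13 lower and 1 to 7 higher at 16 weeks. Slopes ranged from -0.04 to 0.03 for Arhgap20, -0.05 to 0.10 for Esrp1, -0.02 to 0.13 for Hlf and -0.05 to 0.09 for Sowahb. Age differences ranged from -0.07 to 0.19 for Hlf and -0.07 to 0.38 for Rd3l in MRL/lpr, and in MRL/+ from -0.70 to 0.02 for Arhgap20, -0.24 to 0.09 for Esrp1, -0.08 to 0.23 for Mcoln3, -1.07 to 0.04 for Sowahb and -0.32 to 0.22 for Tlx2.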
